A study of Mus musculus with 8 samples.

Results

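The nuclear genes that encode the subunits of mitochondrial oxidative phosphorylation were examined in mouse embryonic stem cells (mESCs) that differed in KLF3. Members were the genes whose symbol began with Nduf followed by a, b, c, s or v and a digit, with Uqcr, with Cox4 to Cox8 or with Atp5, together with Sdha, Sdhb, Sdhc and Sdhd. The rule used names only. It found 83 genes of the 14709 listed in either of 2 tables, with 37 in complex I, 4 in complex II, 8 in complex III, 17 in complex IV and 17 in complex V. Of these, 3 genes match the names but do not encode subunits of the named enzyme. Atp5s and Atp5sl encode factors related to ATP synthase by name, and Cox7a2l encodes a factor that joins respiratory complexes. Ndufa4 was counted in complex I by its name, although its protein is now placed in complex IV.

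Oxidative phosphorylation passes electrons from NADH and succinate along the inner mitochondrial membrane to oxygen. Complexes I, III and IV pump protons on the way, complex II feeds in electrons from succinate without pumping, and complex V lets the protons flow back to make ATP. Most subunits are encoded in the nucleus and imported, and a small set of core membrane subunits is encoded in mitochondrial DNA. Several subunits of complex IV have paralogues that are used in particular tissues, such as heart and skeletal muscle, lung or testis. Mouse ESCs in serum use glycolysis heavily, and respiration is known to differ between pluripotent states.

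The first experiment compared KLF3-GFP-positive with KLF3-GFP-negative cells, sorted from a mESC line with a reporter in which the N-terminal part of KLF3, lacking the DNA-binding domain, was fused to Emerald GFP. The second compared KLF3-OE with GFP-OE cells, made by inserting codon-optimized Klf3 or GFP at Col1a1 of a line with the doxycycline-dependent activator M2rtTA at Rosa26, and inducing it with doxycycline for 72 h. All 4 groups were cultured in serum and LIF, came from a C57BL/6 by 129/sv cross, carry a developmental label of 3.5 days, and consist of 2 samples each. Reporter and overexpression lines were grown from picked colonies or clones, the latter selected on feeder cells. Sorted samples held 500 cells and were amplified by Smart-seq2, whereas poly(A) RNA from the overexpression cultures went through a directional kit. Groups were therefore compared only within each table.

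Each table gives 1 value per gene and group in FPKM, fragments scaled by transcript length and by library size, which is the authors' mean of the 2 samples. No value per sample and no read count was analysed here, so differences have no error and no test, and the depth is unknown. Differences are given as log2(FPKM + 1) in the KLF3 group minus that in its control, over genes whose 2 group values average 1 FPKM or more, and a gene was counted as past 2-fold above 1 or below -1 on that scale. This scale understates the difference of low genes. Klf3 itself was listed at 107 FPKM in KLF3-GFP-negative cells against 122 FPKM in the positive ones, and at 58.7 FPKM in GFP-OE and 47.8 FPKM in KLF3-OE cells. Neither pair checks the labels, because the reporter acts at the protein and reads of a codon-optimized transgene need not map to Klf3.

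Markers of primitive endoderm were higher in both KLF3 groups, with 7 of 7 past 2-fold in each experiment and medians of 3.56 in sorted cells and 1.88 on overexpression. Of all genes tested, 13.8% were past 2-fold higher and 8.32% lower in sorted cells, and 6.6% and 10.1% on overexpression. Gata4, an endoderm transcription factor, had 1.07 and 23.4 FPKM in the negative and positive sorted cells, and 4.16 and 18.7 FPKM in GFP-OE and KLF3-OE cells. Of 9 pluripotency markers, 6 were past 2-fold lower in sorted cells and 3 on overexpression, Nanog among them with 20.8 and 5.03 FPKM and 255 and 103 FPKM in the control and KLF3 groups. On overexpression 3 of the 9 were higher, Utf1 by 0.95, Dppa5a by 0.74 and Pou5f1 by 0.16, and the summed level of the list was 6446 FPKM in GFP-OE and 8577 FPKM in KLF3-OE cells. Of 6 trophoblast markers, 5 were listed in each table. Krt8 and Krt18 were past 2-fold higher in both experiments, and Cdx2, a defining gene, stayed under 1 FPKM in every group. Of 6 fibroblast and feeder cell markers, 2 were listed for sorted cells and 3 for the overexpression experiment. The collagen genes were near the lowest value in the tables, 0.1 FPKM, with Col1a2 at 0.1 and 0.25 FPKM in sorted cells and 0.18 and 0.4 FPKM on overexpression, where Col1a1 had 0.23 and 0.29 FPKM. Thy1, a surface protein of fibroblasts and other cells, had 0.45 and 0.26 FPKM in sorted cells and 2.72 and 3.14 FPKM on overexpression. The summed level of the listed markers was 0.55 and 0.51 FPKM in negative and positive cells, and 3.13 and 3.83 FPKM in GFP-OE and KLF3-OE cells. The part of these shifts in the results below was not tested, and in such bulk samples fewer cells of a type and less RNA per cell cannot be told apart.

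Short motifs of known regulators were looked for in the promoters. Windows of 300 bases, 250 before and 50 after the gene start (RefSeq, GRCm38.p6), were found for 69 of the 83 members and searched on both strands for 5 motifs. The core of the NRF1 site (GCGCANGCG), bound by a known activator of respiratory genes, was in the windows of 20 members, 29.0% against 9.63% of the 17491 protein-coding genes with a window. The ETS motif CCGGAAG, which GABPA binds, was in 16 (23.2% against 12.9%), the YY1 motif AAGATGG in 12 (17.4% against 7.18%), and the ERR motif AAGGTCA in 8 (11.6% against 4.73%). The CACCC box CCACACCC, a motif of Kruppel-like factors, was in 2 (2.90% against 4.21%). These are matches of letters and not sites of binding. The 150 bases before the start are shown for Atp5e, Atp5k and Ndufa8, which were past 2-fold higher in KLF3-OE cells, and for Sdha and Sdhd of complex II, which were not. They were chosen after the values were seen, so that the same motifs can be seen in both kinds of gene. Capitals mark NRF1 and ETS matches in either orientation.
Atp5e (chr2:174464102-174464251, minus strand): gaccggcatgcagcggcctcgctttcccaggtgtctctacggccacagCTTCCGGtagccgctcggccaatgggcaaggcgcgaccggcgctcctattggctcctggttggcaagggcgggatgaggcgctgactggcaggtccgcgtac
Atp5k (chr5:108434400-108434549, minus strand): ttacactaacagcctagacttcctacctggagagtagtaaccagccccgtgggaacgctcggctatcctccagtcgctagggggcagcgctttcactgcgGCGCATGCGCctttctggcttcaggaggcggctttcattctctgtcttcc
Ndufa8 (chr2:36049339-36049488, minus strand): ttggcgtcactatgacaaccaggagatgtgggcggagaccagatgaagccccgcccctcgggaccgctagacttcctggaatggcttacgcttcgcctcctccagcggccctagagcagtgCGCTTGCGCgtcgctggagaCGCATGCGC
Sdha (chr13:74350241-74350390, minus strand): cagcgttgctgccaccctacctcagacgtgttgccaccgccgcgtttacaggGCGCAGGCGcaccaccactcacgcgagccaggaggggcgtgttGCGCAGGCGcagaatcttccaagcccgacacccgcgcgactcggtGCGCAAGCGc
Sdhd (chr9:50603850-50603999, minus strand): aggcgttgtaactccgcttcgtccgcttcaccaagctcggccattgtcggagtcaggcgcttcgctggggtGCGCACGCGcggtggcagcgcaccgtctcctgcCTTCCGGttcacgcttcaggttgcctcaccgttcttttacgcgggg

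Atp5e has an ETS match and Atp5k an NRF1 match that reads the same on both strands, while Ndufa8 has NRF1 matches only. Sdha holds NRF1 matches at 3 places and Sdhd one of each kind, and neither gene was past 2-fold in either experiment. On overexpression, the 20 members with the NRF1 core had a median difference of 1.02 and the 48 without it 0.81. For the ETS motif the medians were 0.98 (16 members) and 0.75 (52 members), and for the YY1 motif 0.78 (12) and 0.86 (56). For the ERR motif they were 1.05 (8) and 0.84 (60), and for the CACCC box 1.29 (2) and 0.84 (66). These medians describe the members and were not tested.

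Members were among the most abundant transcripts of the sorted cells. All 82 listed members made up 11.4% of all FPKM of KLF3-GFP-negative cells and 12.1% of that of the positive cells, and their median level was 487 and 569.8 FPKM. The leading member was Cox7b, a small X-linked subunit of cytochrome c oxidase, at 9556 and 11255 FPKM. Atp5k, which encodes the e subunit in the membrane part of ATP synthase, followed at 7812 and 8616 FPKM, and Ndufc1, a small accessory subunit of complex I, at 6850.2 and 6088 FPKM. In complex III the highest level was that of Uqcrq at 5023 and 5914 FPKM, and in complex II that of Sdhb, the iron-sulfur subunit, at 291 and 206 FPKM. Subunits of the same enzyme could thus span over 2 orders of level in the FPKM of sorted cells. Within complex I of KLF3-GFP-negative cells, Ndufs1, the largest core subunit, had 54.9 FPKM and Ndufc1 6850.2 FPKM. The lowest member counted there was the paralogue Ndufa4l2, at 3.18 FPKM. Across the 82 members, the level in KLF3-GFP-negative cells went down with coding length (Spearman's rho -0.50, a description across genes that share libraries). In GFP-OE cells, whose libraries were made by another method, rho was -0.18 across the same members. Ndufs1 had 48.9 FPKM and Ndufc1 100.4 FPKM there, so the wide spread was a trait of the sorted cells' values.

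**Figure D1:**
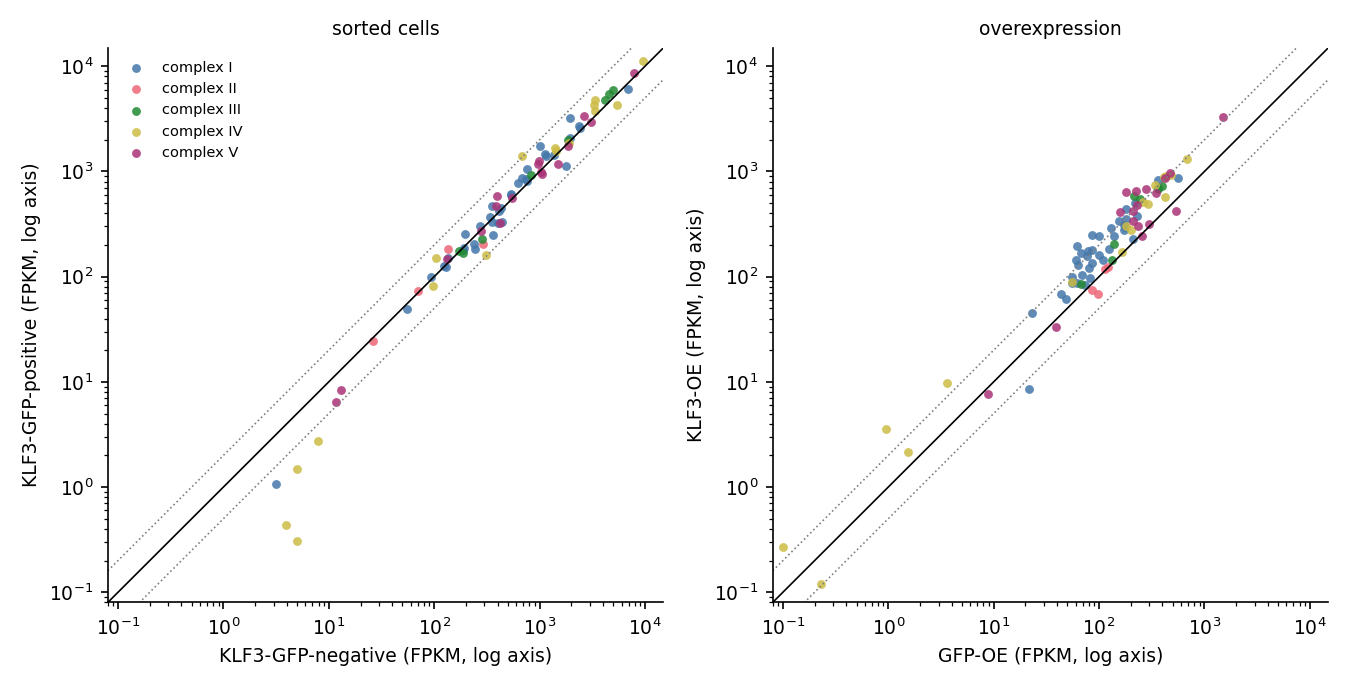
Level of each listed member in the control group (x axis) and the KLF3 group (y axis), both in FPKM on log axes, in sorted cells (left) and on overexpression (right). Points are the authors' means, colours are complexes, the solid line marks equal levels and dotted lines a 2-fold ratio. Sorted cells hold most members near the solid line. Exceptions are low members of complex IV and Ndufa4l2 below it, Cox7a1 close to the lower dotted line and Cox6a1 just above the upper one. Most points of the overexpression experiment lie above the solid line.

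Most subunits differed little between the 2 sorted groups. The median difference of the 82 members was 0.07, beside 0.03 for all 9212 genes tested, and 48 members were higher and 34 lower in the KLF3-GFP-positive group. One member, Cox6a1, was past 2-fold higher and 5 were past 2-fold lower. This is 1.22% and 6.10% of members, against 13.8% of all genes tested for higher and 8.32% for lower. By complex, the medians were 0.09 for complex I, -0.02 for complex II, 0.14 for complex III, 0.06 for complex IV and -0.03 for complex V. Medians this near 0 give no direction, and that of all members was -0.029 with quantile normalization.

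The enzymes' central subunits were close to even. Ndufs1 and Ndufv1, which carry part of the electron path of complex I, had differences of -0.16 and -0.04. The 7 core subunits of complex I had a median of -0.08 and lay between -0.34 (Ndufv2) and 0.06 (Ndufs7), while the 30 accessory members had a median of 0.13. Sdha, the flavoprotein of succinate dehydrogenase, had 70 and 72.6 FPKM in negative and positive cells, and Sdhc, a membrane anchor, 26.3 and 24.6 FPKM. Sdhb differed by -0.49 and Sdhd, the other anchor, by 0.44. In complex III, Uqcrc1 and Uqcrc2, which encode the core proteins, differed by -0.30 and -0.18, and Uqcrfs1, the Rieske iron-sulfur protein, by 0.03. The largest positive difference there was that of Uqcr11, 0.26. Atp5b, the catalytic beta subunit of ATP synthase, had 3102 and 2936 FPKM, and Atp5a1, the alpha subunit, 426 and 320.5 FPKM. The head of complex V (Atp5a1, Atp5b, Atp5c1, Atp5d and Atp5e) had a median of 0.01.

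A few accessory subunits stood above the others. Cox6a1, the widespread isoform of subunit VIa of cytochrome c oxidase, went from 679 to 1415 FPKM, a difference of 1.06. Ndufa1, an X-linked accessory subunit of complex I, had 1008 and 1757 FPKM in negative and positive cells (0.80), and Ndufa4 1956 and 3218 FPKM (0.72). Atp5g3, 1 of 3 genes for the c subunit of the rotor ring, had 390.4 and 585 FPKM (0.58). The lowest values among widespread complex I subunits were those of Ndufa7 (1796 and 1129 FPKM, -0.67) and Ndufb4 (363 and 251 FPKM, -0.53). In complex V the lowest was Atp5sl, which is no subunit, at 11.6 and 6.39 FPKM (-0.77), and Atp5s had 12.9 and 8.31 FPKM (-0.58).

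**Figure D2:**
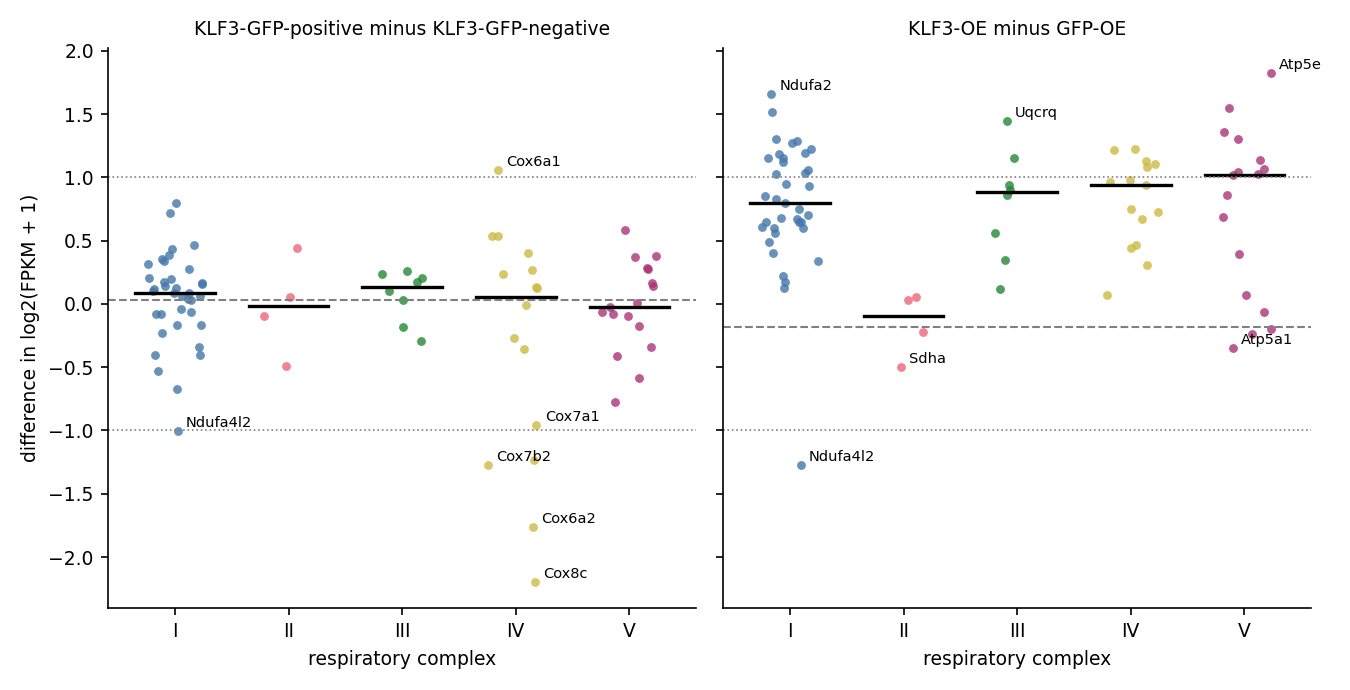
Difference in log2(FPKM + 1) between the KLF3 group and its control (y axis) for each member tested, by complex (x axis), in sorted cells (left) and on overexpression (right). Solid bars are medians of a complex, the dashed line is the median of all genes tested and dotted lines mark 2-fold. In sorted cells the complexes centre on the dashed line and 4 members of complex IV fall below -1. On overexpression complexes I, III, IV and V have medians from 0.80 to 1.02 and complex II -0.10.

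The members past 2-fold lower in KLF3-GFP-positive cells were all paralogues that textbooks place in particular tissues or conditions. Cox8c, a testis isoform of subunit VIII, went from 5.02 to 0.31 FPKM (-2.20). Cox6a2, the heart and muscle isoform of subunit VIa, went from 3.89 to 0.44 FPKM (-1.76). Cox7b2, a second gene for subunit VIIb, went from 5.02 to 1.49 FPKM (-1.27). These were low transcripts, at most a few FPKM in negative cells and under 2 FPKM in positive cells. Cox8c and Cox6a2 passed the minimum mean of 1 FPKM only through their level in negative cells. Cox4i2, the lung and hypoxia isoform of subunit IV, had 7.85 and 2.76 FPKM (-1.23), and Ndufa4l2, a hypoxia-induced relative of Ndufa4, 3.18 and 1.08 FPKM (-1.01). Cox7a1, the heart and muscle isoform of subunit VIIa, was by far more abundant and just inside 2-fold, at 313 and 161 FPKM (-0.96). Cox6b2, a testis isoform of subunit VIb, went the other way, at 103 and 150.1 FPKM (0.54). With a minimum mean of 5 FPKM only 1 member, Cox4i2, stayed tested and past 2-fold lower, since the others were too low to enter.

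The widespread partners of the lower paralogues, where analysed here, were not lower, and Cox6b1 differed nearly as its paralogue Cox6b2 did. Cox8a had 3269 and 4308 FPKM, Cox6b1 3326 and 4814 FPKM and Cox7a2 1439.7 and 1574 FPKM in negative and positive cells, differences of 0.40, 0.53 and 0.13. The share of a paralogue within its pair does not change when a whole column is multiplied by the same factor. It can change with quantile normalization or removal of a trend, and is given here for the values as deposited. Cox7a1 made up 17.8% of the summed FPKM of Cox7a1 and Cox7a2 in negative and 9.25% in positive cells. Cox6a2 made up 0.57% and 0.031% of its pair with Cox6a1, Cox8c 0.153% and 0.0072% of its pair with Cox8a, and Cox6b2 3.01% and 3.02% of its pair with Cox6b1. The isoform composition of cytochrome c oxidase transcripts was thus nearly all widespread forms in both groups, with subunit VIIa as the one pair in which the tissue form was more than a small part. Cox4i1, the widespread partner of Cox4i2, was not analysed here.

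**Figure D3:**
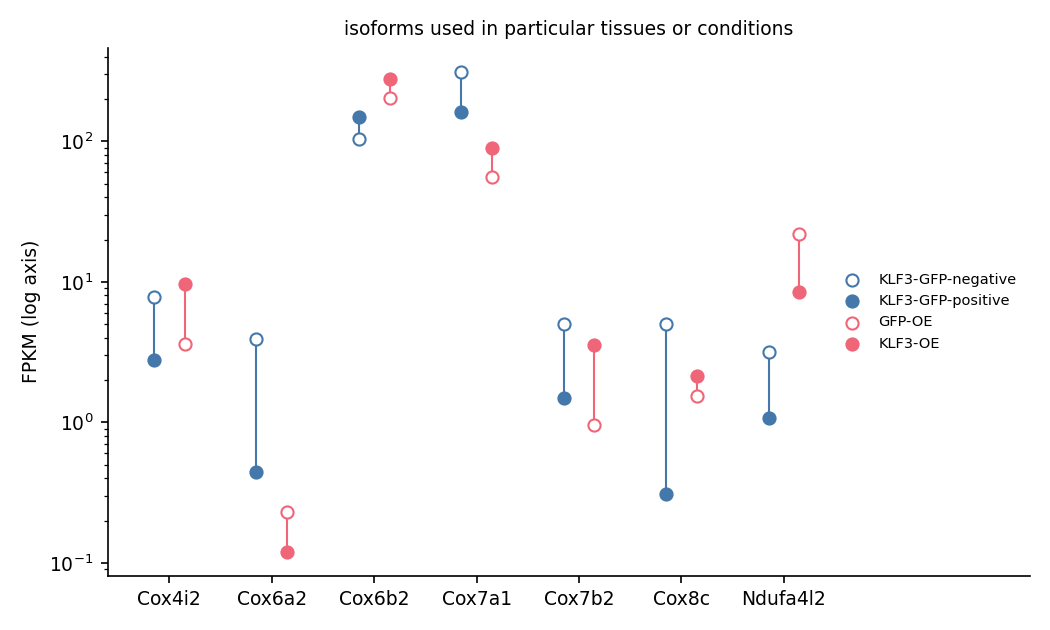
Level in FPKM (log y axis, the authors' means) of 7 paralogues used in particular tissues or conditions (x axis), in KLF3-GFP-negative (open blue), KLF3-GFP-positive (filled blue), GFP-OE (open red) and KLF3-OE cells (filled red). All but Cox6b2 were lower in KLF3-GFP-positive than in KLF3-GFP-negative cells, whereas Cox4i2, Cox6b2, Cox7a1, Cox7b2 and Cox8c were higher in KLF3-OE than in GFP-OE cells.

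In the overexpression experiment most members were higher in KLF3-OE cells. The 81 members tested had a median of 0.83, beside -0.18 for all 11179 genes, and 74 were above 0. Past 2-fold, 30 were higher and 1 was lower, which is 37.0% and 1.23% of members against 6.6% of all genes tested for higher and 10.1% for lower. The members took 2.69% of the summed FPKM in GFP-OE and 3.64% in KLF3-OE cells, while the sums themselves were 612621 and 834882 FPKM. Medians were 0.80 for complex I, 0.88 for complex III, 0.94 for complex IV, 1.02 for complex V and -0.10 for complex II. Those of complexes I, III, IV and V stayed positive under every setting tried, and complex II was at 0.11 with median-ratio scaling. The number past 2-fold higher depended on the setting, with 42 after median-ratio scaling, 20 after removal of the trend with genomic span, 7 with quantile normalization, 6 with equal column sums, 5 without the trend with level and 3 without the trend with coding length. As shares, these were 51.9% of members against 10.4% of all genes tested under the same setting (median-ratio scaling), 24.7% against 7.10% (genomic span), 8.64% against 7.19% (quantile), 7.41% against 2.64% (equal sums), 6.17% against 7.62% (level) and 3.70% against 6.53% (coding length). The share of members past 2-fold higher was thus near or below that of all genes with quantile normalization and after removal of the trend with level or with coding length. Relative to the median of all genes, 75 of 81 members were higher with the values as deposited and 63 with quantile normalization.

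Complex I had 14 of 37 members past 2-fold higher (37.8%, against 6.6% of all genes tested). Each of them was an accessory subunit by the core list used here. Ndufa2 went from 61.4 to 196 FPKM in GFP-OE to KLF3-OE cells (1.66). Ndufa5 went from 86 to 248 FPKM (1.52), and Ndufa8, a subunit with paired cysteines, from 68 to 169 FPKM (1.30). They were followed by Ndufb7, Ndufc1, Ndufb6, Ndufs6, Ndufa4, Ndufb10, Ndufb2, Ndufa3, Ndufa13, Ndufa1 and Ndufs5, with differences from 1.29 down to 1.03. Ndufs6, which is needed for a late step of complex I assembly, had 219 and 500.0 FPKM, and Ndufb10, in the membrane arm, 130.4 and 292 FPKM. The highest level was that of Ndufa7, at 564 and 861 FPKM. Core subunits differed by less. Ndufs3 was the highest of the 7 core subunits at 55.5 and 99.3 FPKM (0.83), Ndufs1 had 48.9 and 61.9 FPKM (0.33), and Ndufv1, which binds NADH, 82.7 and 96.6 FPKM (0.22). The core thus lay between 0.22 and 0.83, and the median of the 30 accessory members was 0.94. The one member past 2-fold lower was Ndufa4l2, which went from 21.8 to 8.46 FPKM (-1.27), while Ndufa4 was higher (364 and 829 FPKM, 1.18). Ndufa4l2 made up 5.65% of this pair in GFP-OE and 1.01% in KLF3-OE cells.

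Complex II, the one enzyme of the set that is also part of the citric acid cycle, had values near or below 0. With the values as deposited, its median of -0.10 was near that of all genes tested, -0.18. Sdha had 97.6 and 68.7 FPKM in GFP-OE and KLF3-OE cells (-0.50) and Sdhc 86.6 and 74 FPKM (-0.23). Sdhb, at 121 and 124 FPKM (0.03), and Sdhd, at 115 and 119 FPKM (0.05), were even. Across the settings tried, Sdha lay between -0.94 and -0.13, whereas Sdhb lay between -0.42 and 0.24 and Sdhd between -0.39 and 0.26, so that their direction rests on the scaling. The whole complex took 0.0686% and 0.0462% of the summed FPKM in the control and KLF3 group. With 4 genes and no error, the difference of complex II from the other complexes could not be tested.

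All 8 members of complex III were above 0 on overexpression. Uqcrq, a small subunit next to cytochrome b, went from 214 to 586 FPKM (1.45) and Uqcr11 from 246 to 547 FPKM (1.15). Uqcrh, the hinge protein, was the most abundant at 399 and 726 FPKM (0.86). The larger subunits were nearer to even, with Uqcrfs1 at 67.2 and 85.8 FPKM (0.35), Uqcrc1 at 139 and 205 FPKM (0.56) and Uqcrc2 at 132 and 144 FPKM (0.12).

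In complex IV, all 15 members tested were above 0 and 5 were past 2-fold (33.3%, against 6.6% of all genes tested). Cox5b, which binds zinc, went from 341 to 745 FPKM (1.13), Cox6c from 411 to 887 FPKM (1.11) and Cox6a1 from 427 to 906 FPKM (1.08). These are widespread subunits, whereas the other members past 2-fold were the low paralogues Cox4i2 (3.59 and 9.7 FPKM, 1.22) and Cox7b2 (0.95 and 3.53 FPKM, 1.22). Both of the latter were past 2-fold lower in KLF3-GFP-positive cells. Cox7b2 was under 1 FPKM in GFP-OE cells and passed the minimum mean only through KLF3-OE cells. Cox7c had the highest level, 676 and 1318 FPKM (0.96), and Cox5a, at the matrix side, 294 and 487 FPKM (0.73). Cox7b was just under 2-fold (0.98), as was Cox6b1 (0.94). Cox7a1 and Cox7a2 differed alike, by 0.67 and 0.75, and Cox7a1 made up 23.6% of the pair in GFP-OE and 22.7% in KLF3-OE cells. Cox6b2 made up 29.4% and 23.1% of its pair with Cox6b1, at 202 and 279.6 FPKM. Cox8a had 419 and 569 FPKM and Cox8c 1.55 and 2.15 FPKM. Cox6a2 (0.23 and 0.12 FPKM) and Cox8b, the muscle isoform of subunit VIII (0.1 and 0.27 FPKM), were under the minimum mean, and Cox8b was the one member not listed for sorted cells. The smallest difference of the complex was that of the joining factor Cox7a2l, 0.07.

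Complex V held the largest difference of all members and also some of those below 0. Atp5e, the epsilon subunit of the central stalk and the shortest member by coding length, went from 178 to 633 FPKM (1.82). Atp5k went from 224 to 655 FPKM (1.54) and Atp5d, the delta subunit next to epsilon in the stalk, from 159.7 to 411 FPKM (1.36). Atp5b was the most abundant member in both groups, at 1491 and 3272 FPKM (1.13). The catalytic partners thus parted, since Atp5a1 had 537 and 420.4 FPKM (-0.35), and Atp5c1, the gamma subunit, 300.2 and 315 FPKM (0.07). Also past 2-fold were Atp5j2, Atp5l, Atp5o, Atp5h and Atp5g1, with differences from 1.30 down to 1.02. Atp5a1 was below 0 in every setting tried, between -0.96 and -0.038. The genes for the c subunit, whose mature proteins are identical, were unlike each other. Atp5g1 had 208 and 423 FPKM, Atp5g2 258 and 246 FPKM and Atp5g3 209.5 and 338 FPKM. Their summed level was 675 FPKM in GFP-OE and 1007 FPKM in KLF3-OE cells, and Atp5g1 made up 30.8% and 42.0% of it. In sorted cells Atp5g1 made up 78.2% of the 3 genes in negative and 70.5% in positive cells. Both non-subunits were below 0, Atp5s at 8.86 and 7.59 FPKM (-0.20) and Atp5sl at 39 and 32.9 FPKM (-0.24).

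The difference on overexpression went with coding length. Of the 21 members with a coding length under 300 bases, 11 were past 2-fold higher and the median was 1.03. Between 300 and 600 bases it was 17 of 38 members with a median of 0.92, and above that 2 of 22 with a median of 0.37. Genes that are no members showed the same order, with 31.8% of 214, 17.7% of 1250 and 4.18% of 9470 past 2-fold higher and medians of 0.73, 0.41 and -0.27. Members lay above the other genes in each class, by a smaller margin among short genes. Across members, Spearman's rho between the difference and coding length was -0.48 (81 genes), and across all genes tested -0.41 (11061 genes), both without a test since genes are not independent replicates. An exception among long members was Atp5b, with 1587 coding bases, and among short ones Ndufa4l2, with 261. After removal of the trend with coding length, an alternative chosen after seeing the data, the median of members was 0.37. In sorted cells no such order was seen over all genes (rho 0.02), and it was -0.30 across members.

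**Figure D4:**
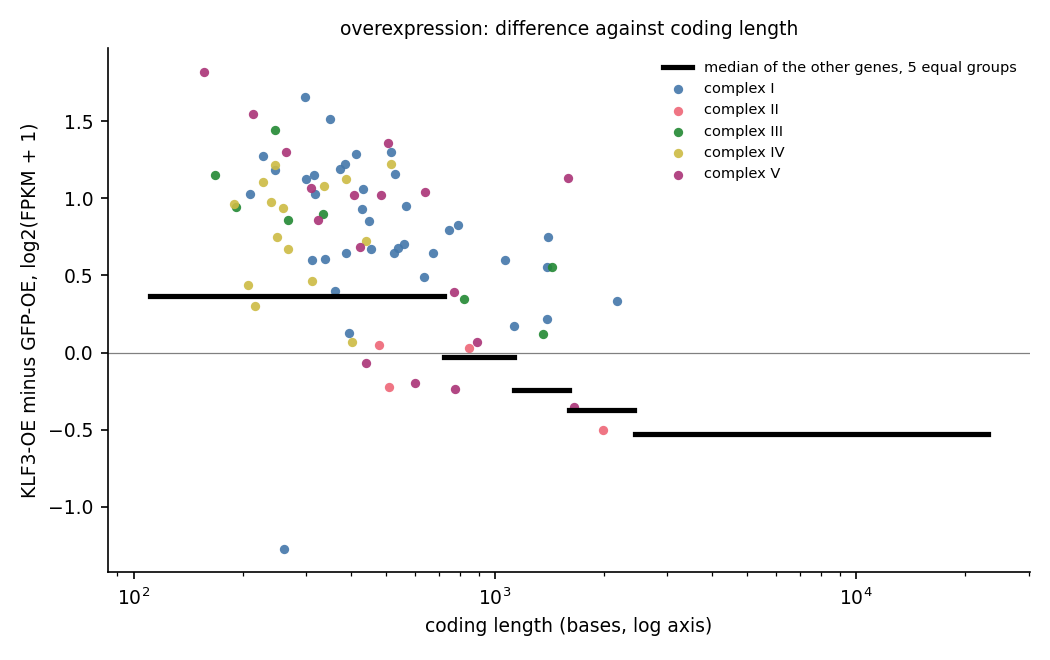
Difference KLF3-OE minus GFP-OE in log2(FPKM + 1) (y axis) against coding length in bases (x axis, log) for the 81 members tested, coloured by complex. Thick bars are medians of the genes that are no members in 5 equal groups of all tested genes by coding length, each drawn over the lengths of its group, and fall from 0.37 to -0.53. Most members lie above the bar at their length, and the exceptions include Sdha, Sdhc and Sdhd of complex II.

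Other gene groups of mitochondria gave context. Of 13 subunits encoded in mitochondrial DNA, 7 were listed for sorted cells, all 7 higher in KLF3-GFP-positive cells and none past 2-fold (median 0.70). All 13 were tested on overexpression, with a median of -0.12. Past 2-fold, 2 were higher (mt-Nd3 and mt-Nd5) and 2 lower (mt-Co1 and mt-Atp8). Each is 15.4% of the list, against 6.6% of all genes tested for higher and 10.1% for lower. mt-Co1, the catalytic core of complex IV, had 6265 and 1599.7 FPKM in GFP-OE and KLF3-OE cells and so moved against most nuclear subunits of its enzyme. The further subunits of complex IV from mitochondrial DNA were near even, mt-Co2 at 205 and 218 FPKM (0.09) and mt-Co3 at 130 and 118 FPKM (-0.15). Of 5 further nuclear proteins of the chain outside the naming rule, all were higher on overexpression and 1, Usmg5 of ATP synthase, was past 2-fold (327 and 914 FPKM, 1.48). Cyc1, the haem subunit of complex III, had 139 and 174 FPKM (0.32) and Cycs, cytochrome c, 103 and 172 FPKM (0.73). Assembly factors were less shifted on overexpression, with a median of 0.29 and 10 of 49 past 2-fold higher and 1 lower. The higher ones were 20.4% of the list, against 6.6% of all genes tested. In sorted cells the median was -0.01, with 2 past 2-fold higher and 0 lower. There the higher ones were 4.08%, against 13.8% of all genes tested.

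Protein import into mitochondria resembled the members in its median on overexpression (0.84, with 5 of 21 past 2-fold higher), led by the small proteins Timm13 (1.53) and Tomm6 (1.42). In sorted cells its median was 0.01, with 0 past 2-fold. Pyruvate dehydrogenase and the citric acid cycle did not, with a median of -0.36 over 17 genes on overexpression. In sorted cells that list had a median of 0.01 and 0 of 17 past 2-fold. The 84 cytosolic ribosomal protein genes, which are likewise short and abundant but not mitochondrial, had a median of 0.84 on overexpression with 23 past 2-fold higher. Their median was -0.23 in sorted cells. Among 14 regulators tested, the median was -0.20, with Slirp (1.67) and Polrmt (1.16) past 2-fold higher and Gabpa, which encodes the ETS factor named above, lower (28.3 and 8.95 FPKM, -1.56). In sorted cells 15 regulators had a median of -0.08, with Polg (1.20) and Esrra (1.17) past 2-fold higher. Of all genes tested, 6.6% were past 2-fold higher and 10.1% lower on overexpression, and 13.8% and 8.32% in sorted cells. On overexpression 23.8% of the import, 27.4% of the ribosomal protein and 14.3% of the regulator genes were past 2-fold higher. In sorted cells 13.3% of the regulators were, near the share of all genes. The part of the values of these lists in the members' result was not tested.

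**Figure D5:**
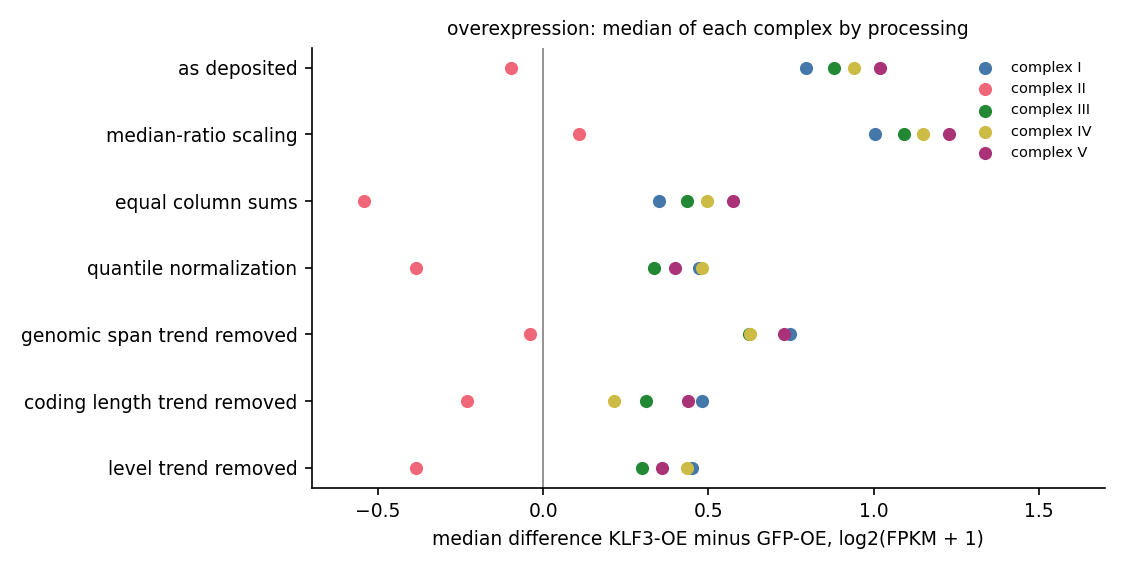
Median difference KLF3-OE minus GFP-OE in log2(FPKM + 1) of each complex (x axis) under 7 ways of processing the same values (y axis). Complexes I, III, IV and V stay above 0 in each, between 0.21 and 1.23, while complex II lies between -0.54 and 0.11 and below the others in each.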

How the data were processed

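RNA was sequenced in 8 samples, 2 in each of 4 groups. The authors aligned reads to mm10 with STAR (2.6.0 in their processing notes) and the GENCODE annotation, and computed FPKM with Cufflinks (2.2.1). The deposited FPKM values are averages of the 2 samples, with 2 decimals and a lowest value of 0.1. How reads shared by paralogues or pseudogenes were assigned is not given in the sources used here, so members with near-identical copies are uncertain. Annotated pseudogenes carry the names of Atp5c1, Atp5k, Atp5l and Uqcrh. Exons of 21 members overlap a gene on the opposite strand (GENCODE M21), which Smart-seq2 reads cannot tell apart, Ndufa2, Ndufs6, Ndufa4l2, Cox6c and Atp5d among them, and exons of 4 (Ndufb2, Ndufb8, Ndufb9 and Atp5o) overlap a gene model on the same strand. Where a gene had several entries, the highest was kept. Members were chosen by symbol, and these and the other lists were chosen with earlier results of these data known. Named were members past 2-fold, the highest level and extreme differences of each complex, members under 1 FPKM, paralogue sets and catalytic subunits. Coding length is the longest coding sequence in M21. Alternatives used other pseudocounts, filters and scalings, or removed lowess trends (fraction 0.3). Calculations ran in Python 3.11.15 with pandas 2.3.3, scipy 1.17.1 and statsmodels 0.14.6, and were tested on simulated data. No share or difference has an interval, because no counts were used. Values of single genes that are left out of the text are not reported here.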

Additional observations from a re-analysis of the deposited data

How the results depend on the processing

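Medians were counted as moved beyond 0.1 on the log2 scale and counts beyond 1.5 times. In sorted cells, quantile normalization turned the median of all members to -0.029 and that of complex I to -0.042, and moved complex II to -0.13. Equal column sums left 0 members past 2-fold higher, and a minimum mean of 5 FPKM left 1 past 2-fold lower. Cox4i2, Cox6a2, Cox7b2 and Cox8c were past 2-fold lower wherever they were tested in sorted cells. The last 3 were not tested at the minimum of 5 FPKM. Cox6a2 and Cox8c passed the minimum of 1 FPKM only through the negative group, so this gives them no further support. In the overexpression experiment, the settings are given as the median of all members, then of complexes I, II, III, IV and V. Median-ratio scaling gave 1.04, then 1.004, 0.11, 1.09, 1.15 and 1.23, with complex II turned. Quantile normalization gave 0.41, then 0.47, -0.38, 0.34, 0.48 and 0.40, with 7 members past 2-fold higher. Equal column sums gave 0.39, then 0.35, -0.54, 0.44, 0.50 and 0.57, with 6. Removal of the trend with level gave 0.36, then 0.45, -0.38, 0.30, 0.44 and 0.36, with 5 (6.17% of members against 7.62% of all genes). Removal of the trend with coding length, added after seeing the data, gave 0.37, then 0.48, -0.23, 0.31, 0.21 and 0.44, with 3 (3.70% against 6.53%). Removal of the trend with genomic span gave 0.69 for all members, 0.62 for complex III, 0.63 for complex IV and 0.73 for complex V. Without a minimum mean, complex IV had 0.75, as Cox6a2 and Cox8b then enter. Ndufa2 and Ndufa4l2 were the members past 2-fold in every setting. The gain in the share of summed FPKM, 0.64 percentage points in sorted cells and 0.96 on overexpression, was 1.01 and 0.82 with quantile normalization. Other causes of these shifts were not tested. No paired analysis was possible because the tables hold 1 average per group, and for the same reason leaving out single samples was not run.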

Other observations

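The X-linked members Ndufa1, Ndufb11 and Cox7b were higher in KLF3-GFP-positive cells by 0.80, 0.43 and 0.24. The median of all 287 X-linked genes tested there was 0.16. On overexpression they were higher by 1.03, 0.67 and 0.98, where the median of 361 X-linked genes was -0.29.

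Of the 81 members tested in both experiments, 46 were above 0 in both, 28 were above 0 on overexpression and below 0 in sorted cells, 2 were the reverse and 5 were below 0 in both. Of all genes tested, 4766 of 9212 were above 0 in sorted cells and 4524 of 11179 on overexpression. The joint split over all genes was not counted, so the members' split has no background. Across the 81 members, Spearman's rho between the differences was 0.37, a description of genes that share coding length in both tables.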
